A study of Mus musculus with 3 samples.

Results

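A set of 9 genes that build and control the first antigen receptor of B cells was followed across mouse bone marrow: Igll1, Vpreb1, Vpreb3, Cd79a, Cd79b, Ebf1, Pax5, Rag1 and Rag2. They were chosen by symbol, not by a measured value, and all 9 were found among the 31053 genes of each count table. The series holds 3 single-cell libraries made with the 10x Genomics kit for transcript 3′ ends, version 2. Marrow was taken from C57BL/6 mice and enriched for cells that carry Kit, a receptor of stem and progenitor cells. The unchallenged library came from mice at steady state. The challenged once library came from mice given Escherichia coli 1 time and is labelled 24 h, and the rechallenged library from mice given it 2 times and is labelled 48 h. There was 1 library in each group, so no test across samples was possible and each difference compares 1 library with another. Effects of repeating the challenge and of the later labelled time cannot be told apart. The labels do not say whether animals were pooled or from when the hours count. Their source name reads neutrophil although the enrichment names Kit, and the design text gives a different number of samples, so the labels of the single samples were followed.

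B cells form in the bone marrow from lymphoid progenitors that commit to the lineage and then assemble their receptor genes. Ebf1 and Pax5 are transcription factors that set and hold B cell identity, and Rag1 and Rag2 encode the recombinase that cuts immunoglobulin gene segments. Igll1 and Vpreb1 encode the surrogate light chain, which pairs with the first rearranged heavy chain. Cd79a and Cd79b encode the signalling partners of that complex, and the surrogate light chain genes are switched off as the precursors mature.

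Among the members, 2 pairs are neighbours, with positions from GENCODE on GRCm38. Igll1 (chr16:16860671-16863985, minus strand) and Vpreb1 (chr16:16868403-16870843, minus strand) are 4417 bases apart. Rag2 (chr2:101624718-101632529, plus strand) and Rag1 (chr2:101638282-101649501, minus strand) are 5752 bases apart and are transcribed toward each other. Pax5 (chr4:44524757-44710487, minus strand), Cd79a (chr7:24897381-24902197, plus strand) and Vpreb3 (chr10:75943057-75949657, plus strand) are each the only member on their chromosome. Ebf1 (chr11:44617317-45008091, plus strand) and Cd79b (chr11:106311341-106314762, minus strand) share a chromosome at a distance. Vpreb1 has a near copy, Vpreb2, with which it shares 28.1% of the 31-base words of its last 300 bases, so 3′ counts of this pair may be split. The other members share none of these words among themselves or with Vpreb2.

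The 250 bases before the RefSeq start were available for 8 of the 9 members, on build GRCm38.p6. They were searched on both strands for 4 motifs of factors that act in B cell precursors: a palindrome bound by EBF factors (CCCNNGGG), a second EBF core (TCAAGGG), an E-box of the E2A type (CAGGTG) and the octamer (ATTTGCAT). The 5 members with a match are shown because they hold the letters compared here. Capitals mark the matched letters, no match overlaps another, and each window reads 5′ to 3′ toward the start of the gene.

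Igll1, chr16:16863986-16864235, minus strand: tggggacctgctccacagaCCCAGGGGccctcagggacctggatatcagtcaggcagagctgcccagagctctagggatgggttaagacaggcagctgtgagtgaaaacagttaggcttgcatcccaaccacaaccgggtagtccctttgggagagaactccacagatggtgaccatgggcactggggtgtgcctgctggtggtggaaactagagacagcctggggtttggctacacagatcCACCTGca
Vpreb1, chr16:16869256-16869505, minus strand: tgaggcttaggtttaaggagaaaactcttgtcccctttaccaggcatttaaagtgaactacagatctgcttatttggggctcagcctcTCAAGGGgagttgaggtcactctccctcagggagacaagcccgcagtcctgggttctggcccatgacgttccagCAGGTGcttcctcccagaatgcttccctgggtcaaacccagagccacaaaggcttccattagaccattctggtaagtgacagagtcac
Vpreb3, chr10:75948050-75948299, plus strand: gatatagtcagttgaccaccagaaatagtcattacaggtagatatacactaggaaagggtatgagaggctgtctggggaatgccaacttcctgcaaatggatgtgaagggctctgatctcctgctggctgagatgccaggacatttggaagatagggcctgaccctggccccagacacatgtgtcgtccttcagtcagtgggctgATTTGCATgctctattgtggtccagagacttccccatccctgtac
Cd79a, chr7:24897247-24897496, plus strand: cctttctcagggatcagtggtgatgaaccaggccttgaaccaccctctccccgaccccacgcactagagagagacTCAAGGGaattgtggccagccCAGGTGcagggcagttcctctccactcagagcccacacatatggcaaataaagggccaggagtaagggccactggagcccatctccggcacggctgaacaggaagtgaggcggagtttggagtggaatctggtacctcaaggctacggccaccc
Rag1, chr2:101649533-101649782, minus strand: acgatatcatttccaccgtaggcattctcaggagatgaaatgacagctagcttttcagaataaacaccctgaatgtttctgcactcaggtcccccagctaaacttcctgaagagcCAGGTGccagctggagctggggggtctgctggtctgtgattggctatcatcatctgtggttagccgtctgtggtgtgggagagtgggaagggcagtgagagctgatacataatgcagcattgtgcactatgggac

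Positions are counted back from the last base before the start, which is -1. The Igll1 window held the EBF palindrome at -231 to -224 and an E-box, read from the other strand, at -8 to -3. In Vpreb1 the EBF core was at -162 to -156 and an E-box at -88 to -83. In Cd79a the same pair of motifs was at -175 to -169 and -154 to -149. Vpreb3 held the octamer at -45 to -38 and Rag1 an E-box at -135 to -130. The windows of Ebf1, Pax5 and Rag2 held none of these letters. Of all 32851 promoter windows of this length, 11.8% held the palindrome, 3.07% the EBF core, 17.2% the E-box and 1.60% the octamer. A match describes letters in a window and is not a binding site.

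After filtering, 8796, 8356 and 8286 cells were kept, given here and throughout in the order unchallenged, challenged once, rechallenged. Median depths were 10969, 13004 and 10248 unique molecular identifiers (UMIs, counts of single transcripts) per cell, and pairs of libraries shared 103 to 125 cell barcodes. Clusters were formed and named without the 9 members. B lineage-like cells, named from 21 other B cell genes, formed 2 clusters with 1194, 1429 and 391 cells. They were 13.6% (12.9 to 14.3), 17.1% (16.3 to 17.9) and 4.72% (4.27 to 5.20) of kept cells, with exact binomial 95% intervals. Intervals here and in what follows cover counting error only. Cell shares follow the enrichment for Kit and are not those of whole marrow. Kit in B lineage-like cells was at 18.1, 24.0 and 45.2 counts per 1000000 UMIs (CPM), against 99.6, 64.4 and 121 in cells resembling haematopoietic stem and progenitor cells (HSPC-like).

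The B lineage name came from genes outside the members, so the markers that gave it describe these cells and are no check of it. Both clusters had Mzb1, Blnk, Cplx2 and Lef1 among their leading genes, and the cycling one also Dntt, which encodes the polymerase that adds bases at receptor gene joints. Dntt was nevertheless higher in the less cycling cluster than over both together. It was at 1673 against 1377 CPM in unchallenged cells and 1816 against 1479 CPM in challenged once cells. Of the 21 B lineage markers, 21, 21 and 20 were detected. Ighm and Igkc are among these markers. Cd3e of T cells and Fcer2a of mature B cells, which are not, were at 0 UMIs in these cells of all 3 libraries. Other genes of their lists were present. Nkg7, from the same list as Cd3e, was at 49.8, 39.1 and 42.1 CPM. Of 16 genes of later B cells, the list that holds Fcer2a, 15, 15 and 12 were detected. They summed to 907, 1219.5 and 647 CPM. Ighm, the first heavy chain gene used, was at 1485, 1815 and 1669 CPM and Igkc, the kappa light chain gene, at 119, 91.9 and 86.3 CPM.

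Over all kept cells, transcripts of all 9 members were lowest in the rechallenged library. Igll1 was at 141, 122 and 17.4 CPM and Vpreb1 at 162, 144 and 28.1 CPM. Vpreb3, whose product binds newly made receptor chains in precursors, was at 218, 213 and 47.3 CPM. The challenged once library stood near the unchallenged one for these 3 genes. The rechallenged library was lower than the unchallenged one by 8.11-fold (7.70 to 8.55) for Igll1, 5.75-fold (5.51 to 6.00) for Vpreb1 and 4.62-fold (4.47 to 4.77) for Vpreb3.

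The signalling pair followed the same pattern. Cd79a was at 122, 106 and 20.5 CPM, 5.98-fold (5.69 to 6.28) lower in the rechallenged than in the unchallenged library. Cd79b was at 64.8, 71.0 and 21.2 CPM, 3.06-fold (2.91 to 3.22) lower. The regulators were also lowest after rechallenge, with Ebf1 at 223, 199 and 68.6 CPM and Pax5 at 9.72, 7.83 and 4.01 CPM. Of the recombinase genes, Rag1 was at 12.0, 15.4 and 8.12 CPM and Rag2 at 7.86, 9.43 and 3.02 CPM. Rag1 differed least of the members between the unchallenged and rechallenged libraries, by 1.48-fold (1.35 to 1.62).

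A gene was called past a fixed 1.5-fold on the scale of log2(CPM + 10), if the 2 libraries compared held 100 or more of its UMIs in all. On that scale 6 of the 9 members were lower over all kept cells in the rechallenged than in the unchallenged library, where 4.06% of 11944 genes were, and none was higher, where 2.3% were. The median log2 ratio was -1.57 for the members and -0.02 for all genes. Against the challenged once library 6 members were lower (8.43% of 12070 genes) and none higher (1.44%). The medians were -1.41 and -0.08. Between the challenged once and unchallenged libraries no member was higher (1.99% of 12181 genes) or lower (1.52%), with medians of -0.15 for the members and 0.07 for all genes. The 6 were Igll1, Vpreb1, Vpreb3, Cd79a, Cd79b and Ebf1 in both rechallenged comparisons. Pax5, Rag1 and Rag2 had levels close to the 10 CPM added, which shrinks their ratios.

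B lineage-like cells held most of the transcripts of most members. Of Igll1 UMIs, 91.8%, 92.9% and 87.3% were in B lineage-like cells, and of Ebf1 UMIs 95.2%, 92.0% and 83.5%. For Cd79b the shares were 73.3%, 65.7% and 25.5%, so most rechallenged Cd79b transcripts lay in other cells. The same held for Rag2, with 122 of its 271 rechallenged UMIs in B lineage-like cells. B lineage-like cells gave 5.96%, 4.40% and 1.11% of all kept UMIs. Their part in the levels over all cells was not tested.

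**Figure D1:**
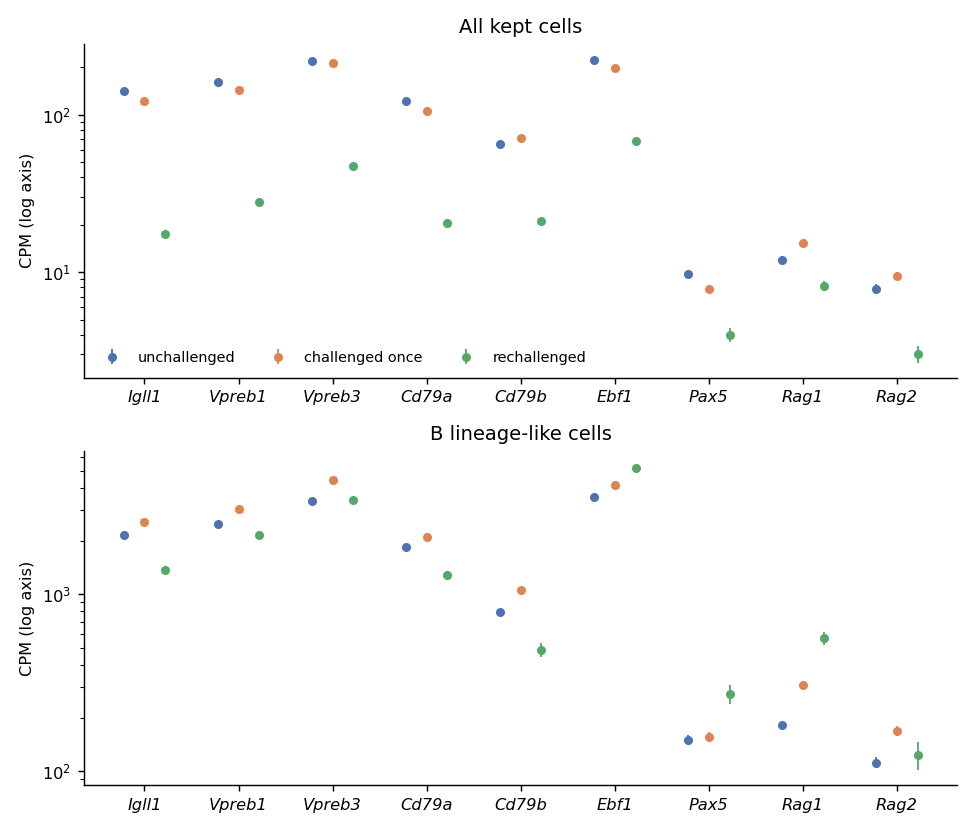
Level of each member (CPM, log axis) in the 3 libraries, over all kept cells (top) and over B lineage-like cells only (bottom), with exact Poisson 95% intervals. The rechallenged library is the lowest for all 9 members over all cells, while inside B lineage-like cells it is the highest for Ebf1, Pax5 and Rag1.

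Inside B lineage-like cells Igll1 was the surrogate light chain gene past 1.5-fold, lower in rechallenged than in unchallenged and challenged once cells. Igll1 was at 2174 (2138 to 2209.8), 2583 (2541 to 2625) and 1369.7 (1298 to 1444) CPM, with exact Poisson intervals. Vpreb1 was at 2487 (2449.5 to 2526), 3028 (2983 to 3074) and 2166 (2076 to 2259.7) CPM. The rechallenged value was the lowest and the challenged once value the highest for both genes, but Vpreb1 did not pass 1.5-fold in any comparison. Vpreb3 was at 3393 (3349 to 3438), 4459.7 (4404 to 4515) and 3441 (3326 to 3558) CPM, so its unchallenged and rechallenged values overlapped. Igll1 had 0.874 (0.854 to 0.894), 0.853 (0.834 to 0.872) and 0.632 (0.590 to 0.677) UMIs per Vpreb1 UMI in these cells, lowest after rechallenge. Vpreb2, the near copy of Vpreb1, was at 263 (251 to 276), 312 (297 to 327) and 370.3 (333 to 410.0) CPM, also short of 1.5-fold.

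Cd79a and Cd79b, which carry the signalling motifs of the receptor complex, had their lowest values after rechallenge, with Cd79b past 1.5-fold against both other libraries and Cd79a against challenged once cells alone. Cd79a was at 1863 (1830.3 to 1896), 2118 (2079.9 to 2156) and 1279 (1210.1 to 1352) CPM. Cd79b was at 797 (776 to 819), 1059 (1033 to 1087) and 487 (444 to 532) CPM. For Cd79b the rechallenged cells were 1.64-fold (1.49 to 1.80) below unchallenged and 2.18-fold (1.98 to 2.39) below challenged once cells. For Igll1 the same differences were 1.59-fold (1.5 to 1.68) and 1.89-fold (1.78 to 1.99).

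Of the regulators, Pax5 was past 1.5-fold higher in rechallenged cells than in both other libraries. Ebf1 did not pass 1.5-fold in any comparison over both clusters, with a log2 ratio of 0.53 in rechallenged over unchallenged cells. Ebf1 was at 3561 (3515 to 3607), 4165 (4111 to 4219) and 5163 (5022 to 5306) CPM. Pax5 was at 149 (140.2 to 159), 156 (146 to 167) and 272 (241 to 306) CPM, 1.82-fold (1.59 to 2.08) higher in rechallenged than in unchallenged cells. Its unchallenged and challenged once values overlapped within counting error.

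Rag1 had the widest spread of the 9 members between libraries inside these cells. It was at 182 (172 to 193), 307 (293 to 322) and 565 (519 to 614) CPM, 3.10-fold (2.80 to 3.43) higher in rechallenged than unchallenged cells and 1.69-fold (1.56 to 1.82) higher in challenged once than unchallenged cells. Rag2, which acts together with Rag1, was at 112 (104 to 120.1), 169 (158 to 179.9) and 122 (102 to 146) CPM. Its rechallenged value overlapped the unchallenged one. Rag1 had 1.63 (1.49 to 1.79), 1.82 (1.68 to 1.97) and 4.61 (3.79 to 5.66) UMIs per Rag2 UMI in these cells, so the proportion of the pair stood apart after rechallenge.

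In counts, 1 of 9 members, Rag1, was higher in challenged once than unchallenged B lineage-like cells, where 1.57% of 7730 genes were, and none was lower (0.686%). In rechallenged against unchallenged cells Rag1 and Pax5 were higher (6.84% of 6478 genes) and Igll1 and Cd79b lower (17.6%). Against challenged once cells, Rag1 and Pax5 were again higher (6.57% of 6137 genes) and Igll1, Cd79a and Cd79b lower (19%). The members' median log2 ratios were 0.28, 0.02 and -0.43 in these comparisons, and those of all genes tested -0.00, -0.16 and -0.17. The comparisons share libraries and are not independent. The challenged once difference of Rag1 was 0.38 on the log2 scale in cells thinned to 1000 UMIs and 0.21 in the less cycling cluster, both short of 1.5-fold. The rechallenged difference over unchallenged fell short of 1.5-fold for Igll1 after thinning (-0.50) and for Cd79b with doublet calls kept (-0.50). In cells gated by UMIs of 2 B lineage markers, of which 23.9%, 31% and 14.2% lay in the B lineage-like clusters, no member was higher in any comparison, where 1.14%, 2.53% and 1.31% of all genes were, with Rag1 at 0.13 and Pax5 at -0.27 over unchallenged. Centring on the median of gene ratios would shift the scale by 0.00, -0.11 and -0.10 in these cells and by 0.20, -0.07 and -0.23 over all cells.

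Depth and some transcripts of other cells also differed between the libraries in these cells. The median B lineage-like cell had 3614, 2759 and 1448 UMIs, and mitochondrial transcripts were 2.45%, 2.44% and 4.50% of their UMIs. The 6 neutrophil granule genes Camp, Ngp, S100a8, S100a9, Ltf and Lcn2, all detected, summed to 17198, 3636 and 3509 CPM in them. Of 12 T cell, natural killer and innate lymphoid markers 10, 9 and 5 were detected, at sums of 60.0, 60.7 and 61.2 CPM, and of 6 plasma cell markers 5, 6 and 5, at 1314, 1403 and 828 CPM. The 12 S phase genes summed to 1971, 1612 and 1570.3 CPM and the 12 genes of the G2 and M phases to 3085, 2399.9 and 1957 CPM. The part of these values in the members' differences was not tested.

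The 2 B lineage-like clusters differed in cycling and in the members. Cluster 4 held 684, 1009 and 233 cells, with median depths of 2654, 2322 and 1209 UMIs and summed G2 and M phase genes at 757, 467 and 154 CPM. Cluster 9 held 510, 420 and 158 cells with median depths of 8072, 6390.5 and 3511 UMIs and the same genes at 4045, 3903 and 2708 CPM. All 9 members were higher in cluster 4 than in cluster 9 in each library. Rag1 was at 446, 517 and 1382 CPM in cluster 4 and 73.4, 144 and 225 in cluster 9. Igll1 was at 3728, 3921 and 2531 CPM in cluster 4 and 1534, 1543 and 886 in cluster 9. Pax5 was at 191, 186 and 341 CPM in cluster 4 and 132, 132 and 243 in cluster 9, the smallest gap of the 9. Since the clusters were formed from other genes of the same cells, these values describe them and are no test.

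After 1 challenge, 7 of the 9 members differed less within either cluster than over both together. Cluster 4 was 57.3%, 70.6% and 59.6% of B lineage-like cells. The part of these shares in the members' differences was not tested. Within cluster 4 the challenged once over unchallenged log2 ratios of the 9 members lay between -0.04 for Pax5 and 0.24 for Cd79b. Within cluster 9 they lay between 0.00 for Pax5 and 0.88 for Rag1. Rag1 and Rag2 were the exceptions, with a larger difference in cluster 9 than over both together. Rag1 was the only member past 1.5-fold in cluster 9, where 1% of 6290 genes were higher and 0.747% lower.

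The rechallenged differences of Rag1 and Pax5 were present within each cluster. Rag1 was higher than unchallenged by a log2 ratio of 1.61 in cluster 4 and 1.49 in cluster 9, and Pax5 by 0.80 and 0.83. Ebf1 was past 1.5-fold in cluster 4, at 0.67, and at 0.41 in cluster 9. Rag2, whose product acts together with that of Rag1, was at 0.23 in cluster 4 and -0.02 in cluster 9, short of 1.5-fold. Cd79b was past 1.5-fold in cluster 4, at -0.86, and at -0.58 in cluster 9. Igll1 was at -0.56 in cluster 4 and past 1.5-fold in cluster 9, at -0.79, and Cd79a at -0.32 and, past 1.5-fold, -0.71. Vpreb1 was at -0.20 in both clusters. Of all genes tested in this comparison, 11% were higher and 26.2% lower in cluster 4, and 5.56% and 20.2% in cluster 9. Lower values past 1.5-fold were thus common among all genes.

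**Figure D2:**
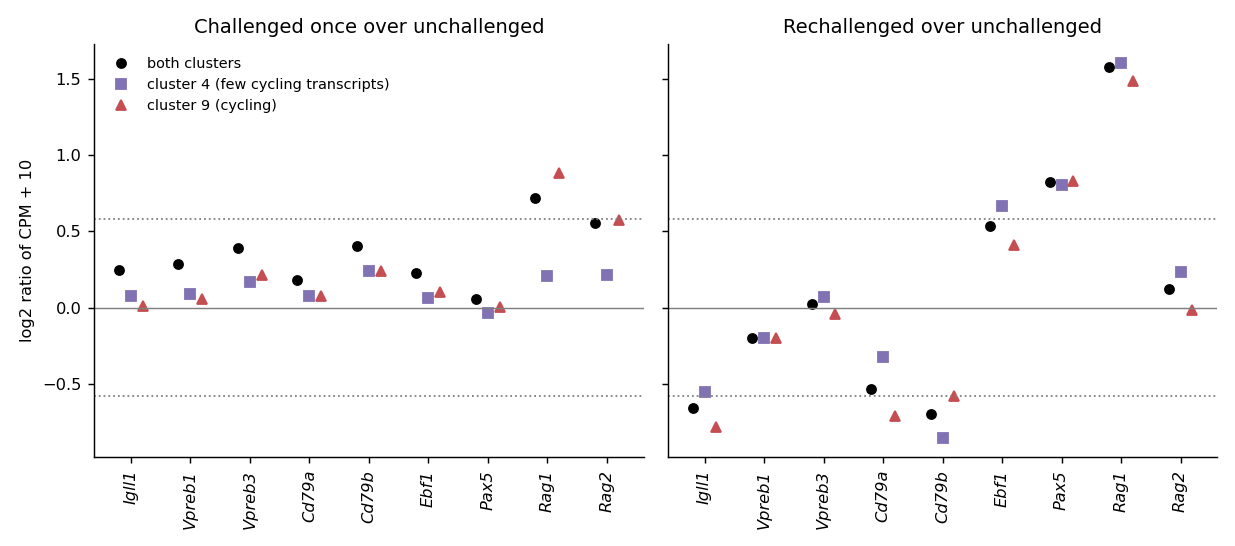
Log2 ratio of CPM + 10 for each member in B lineage-like cells, challenged once over unchallenged and rechallenged over unchallenged, for both clusters together and each alone, with dotted lines at 1.5-fold. In the rechallenged comparison Rag1 and Pax5 lie above the upper line in both clusters, and in the other one Rag1 alone passes it.

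Re-clustering the B lineage-like cells without the members gave 8 groups that followed the libraries. In 7 of them 1 library gave over 80% of the cells, so these groups may be libraries and not stages. The exception, group 5, held 63 unchallenged, 145 challenged once and 3 rechallenged cells and was led by Fcrla and the light chain gene Igkc. Igll1 was highest in group 0, at 4166 CPM, which was 96.6% challenged once cells. It was lowest in group 7, at 817 CPM, which was 87.9% rechallenged cells. Group 5 lay between them at 2711 CPM, near group 4 at 2683. Pax5 was at 253 CPM in group 5 and 175 in group 0, between 126 in group 6 and 324 in group 4. Group 6, led by the growth genes Srm, Gnl3 and Apex1 and 89.8% unchallenged, had Rag1 at 44.6 CPM. Group 4, 84.2% rechallenged, had Rag1 at 1270.4 CPM.

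Single cells were compared after thinning each to 1000 UMIs, which left out 47, 71 and 66 B lineage-like cells of lower depth. A median of 6 of the 9 members was detected per thinned cell in each library, and 98.8%, 99.6% and 97.5% of cells had at least 3. Rag1 was detected in 23.9% (21.4 to 26.5), 31% (28.5 to 33.5) and 49.2% (43.7 to 54.8) of thinned cells and, without thinning, in 54.9%, 61.7% and 65.0%. It was the rechallenged cells that most often had it on either scale. Pax5 was detected in 14.6% (12.6 to 16.8), 17.5% (15.5 to 19.6) and 25.2% (20.6 to 30.3) of thinned cells and, without thinning, in 48.8%, 41.1% and 43.5%. The order of the Pax5 shares thus depended on depth, and the thinned order is that of its CPM. Cd79b was detected in 59.7% (56.8 to 62.6), 69.1% (66.6 to 71.6) and 44.9% (39.4 to 50.5) of thinned cells, against 94.9%, 93.7% and 64.2% without thinning.

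Erythroid-like cells, which should lack these transcripts, gave a background that may come from free RNA, a source that was not tested. After thinning, no member was detected in over 1.12% of erythroid-like cells in any library. All members were absent from 96.2%, 96.7% and 99.2% of thinned erythroid-like cells. For thinned immature neutrophil-like cells these shares were 93.3%, 94.5% and 99.0%. Both classes were deeper than B lineage-like cells, so their thinned values may understate the background there. Pax5 and Rag1 were found in 0 of 557, 627 and 250 thinned erythroid-like cells, which by exact intervals allows up to 0.660%, 0.587% and 1.46%. Unthinned, at median depths of 31313, 26238 and 16829 UMIs, Igll1 was found in 20.3%, 9.08% and 1.16% of erythroid-like cells. B lineage-like cells had Igll1 in 99.2%, 98.8% and 94.1% at their lower depths. Immature neutrophil-like cells had it in 12.0%, 5.96% and 0.802% at median depths of 10008, 8026 and 8779 UMIs.

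Vpreb1 was detected more often in cells with an Igll1 UMI than in cells without. Vpreb1 was found in 91.1% (89.2 to 92.8), 93.8% (92.3 to 95.1) and 89.6% (85.1 to 93.1) of thinned B lineage-like cells with an Igll1 UMI, and in 78.7% (71.4 to 84.9), 80.8% (73.6 to 86.7) and 64% (52.1 to 74.8) of those without. The intervals with and without Igll1 did not overlap in any library. Igll1 was found in 91.2% (87.2 to 94.3), 95.7% (93.3 to 97.4) and 85.6% (79.2 to 90.7) of cells with a Rag1 UMI and in 85.0% (82.5 to 87.3), 85.8% (83.4 to 88.0) and 68.5% (60.8 to 75.5) of cells without one, with intervals that overlapped in the unchallenged library and were apart in the other two. Igll1 was found in 86.9% (80.8 to 91.6), 85.2% (80.1 to 89.5) and 70.7% (59.6 to 80.3) of cells with a Pax5 UMI, and in 86.4% (84.1 to 88.5), 89.7% (87.7 to 91.4) and 79.0% (73.3 to 84.0) of cells without, and these intervals overlapped in each library. Cells of 1 library share their source, so these shares describe the libraries.

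**Figure D3:**
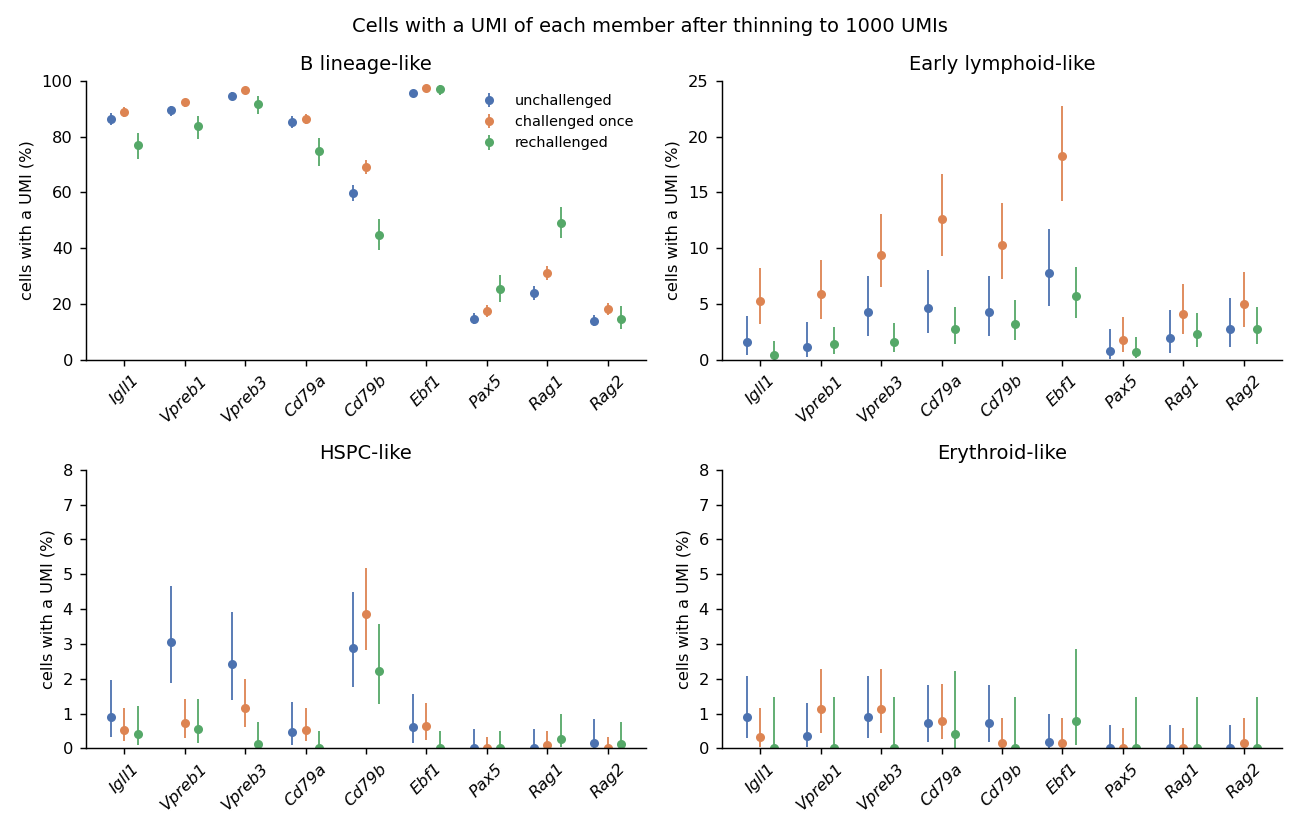
Percent of cells with at least 1 UMI of each member after thinning each cell to 1000 UMIs, with exact 95% intervals, in 4 cell classes. Ebf1 reaches 97.5% of B lineage-like and 18.2% of early lymphoid-like cells in the challenged once library.

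Early lymphoid-like cells, led by Cox6a2, Ly6d, Dntt and Flt3, held lower levels of the members. There were 257, 340 and 436 of them, at median depths of 10232, 12778 and 9212 UMIs, and Siglech, a marker of plasmacytoid dendritic cells, was at 26.1, 12.8 and 51.5 CPM. Ebf1 was at 103 (91.3 to 115), 216 (203 to 229.7) and 63.5 (56.2 to 71.5) CPM. Vpreb3 was at 56.3 (48.0 to 65.6), 142 (131 to 153) and 23.6 (19.2 to 28.6) CPM and Cd79a at 48.4 (40.7 to 57.1), 130.1 (120.0 to 141) and 17.1 (13.4 to 21.5) CPM. The challenged once library was the highest for all 9 members in this class. Rag1 was at 12.0, 26.5 and 16.4 CPM and Rag2 at 17.5, 30.4 and 21.5 CPM.

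A minority of the early lymphoid-like cells carried several members at once. After thinning, 3.89% (1.88 to 7.04), 12.1% (8.79 to 16.0) and 2.06% (0.948 to 3.88) had at least 3, and no member was detected in 83.3%, 70.6% and 87.8%. Ebf1 was found in 7.78% (4.82 to 11.8), 18.2% (14.3 to 22.8) and 5.73% (3.74 to 8.35) of thinned cells and, unthinned, in 17.5%, 30.9% and 15.4%. On each measure the challenged once library stood above the others. Whether cells of the B lineage-like clusters entered this class was not tested.

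The recombinase genes stood in another proportion in these cells. Early lymphoid-like cells had 0.686 (0.433 to 1.08), 0.873 (0.681 to 1.12) and 0.763 (0.553 to 1.05) Rag1 UMIs per Rag2 UMI. Each interval lies below that of the B lineage-like cells of the same library. In the rechallenged library early lymphoid-like cells held 34.3% of all Rag2 UMIs and 9.73% of all Rag1 UMIs.

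A small cluster rich in immunoglobulin transcripts split the members. It was led by Igkc, Jchain, Iglc1 and Igha, stayed unnamed because it carried all plasma cell markers beside B lineage markers, and held 40, 52 and 110 cells at median depths of 4222, 2603 and 1186 UMIs. Cd79a was at 935 (839.9 to 1038), 1886 (1708 to 2079) and 1232 (1109 to 1364) CPM and Cd79b at 667 (587 to 755), 1358 (1207 to 1523) and 644 (557 to 742) CPM. Igll1 was at 34.5 (18.4 to 59.1), 51.0 (25.5 to 91.2) and 26.7 (11.5 to 52.6) CPM and Vpreb1 at 47.8, 74.2 and 50.1 CPM. The surrogate chain genes were far below their levels in B lineage-like cells, and the signalling genes much less so or not at all.

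Vpreb3, Ebf1 and Pax5 stood nearer the signalling genes in that cluster. Vpreb3 was at 446 (381 to 519), 1187 (1046 to 1341) and 1606 (1465 to 1756) CPM, and Ebf1 at 441 (376 to 513), 1103 (967 to 1253) and 1602 (1462 to 1752) CPM. Vpreb3 had 12.9 (7.36 to 24.8), 23.3 (12.8 to 47.2) and 60.1 (30.3 to 140.1) UMIs per Igll1 UMI in the cluster, against 1.56, 1.73 and 2.51 in B lineage-like cells. The proportion of these 2 genes was therefore higher in the cluster in each library. Pax5 was at 45.2 (26.3 to 72.3), 139 (93.8 to 199) and 197 (149.9 to 254) CPM. Rag1 was at 21.3 (9.17 to 41.9), 9.27 (1.12 to 33.5) and 184 (138 to 239) CPM, from 8, 2 and 55 UMIs. In the rechallenged library the cluster held 20% of all Cd79a UMIs, 16.4% of all Pax5 UMIs and 0.512% of all Igll1 UMIs. Camp of neutrophils was at 12798, 306 and 921 CPM in it, and its part in these values was not tested.

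Cd79b was measured in several classes outside the B lineage. It was at 28.7, 30.4 and 19.0 CPM in HSPC-like cells, 35.9, 35.5 and 22.5 in monocyte-like cells and 29.1, 23.6 and 13.4 in neutrophil progenitor-like cells. In erythroid-like cells it was at 3.61, 2.18 and 1.43 CPM and in immature neutrophil-like cells at 5.49, 3.70 and 0.904 CPM. Cd79a, its partner, was at 7.85, 5.50 and 1.04 CPM in HSPC-like cells and at 6.31, 4.17 and 2.38 CPM in erythroid-like cells, so only Cd79b separated these 2 classes.

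The proportion of the pair differed between classes. B lineage-like cells had 0.428 (0.414 to 0.442), 0.500 (0.485 to 0.516) and 0.380 (0.342 to 0.423) Cd79b UMIs per Cd79a UMI. Erythroid-like cells had 0.571 (0.409 to 0.792), 0.522 (0.337 to 0.798) and 0.600 (0.179 to 1.82), with intervals that overlap those of the B lineage-like cells. HSPC-like cells had 3.65 (2.70 to 5.02), 5.52 (4.43 to 6.94) and 18.2 (9.02 to 43.1), from 201, 530 and 146 Cd79b UMIs. Monocyte-like cells had 5.23 (4.10 to 6.74), 8.99 (7.04 to 11.6) and 19.4 (12.4 to 32.1), and neutrophil progenitor-like cells 3.69 (2.98 to 4.60), 5.71 (4.82 to 6.79) and 13.5 (9.26 to 20.5). These 3 classes lie above the B lineage-like proportion in each library, and the part of free RNA in these values was not tested. After thinning, Cd79b was detected in 2.89%, 3.87% and 2.21% of HSPC-like cells and 0.718%, 0.159% and 0% of erythroid-like cells.

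**Figure D4:**
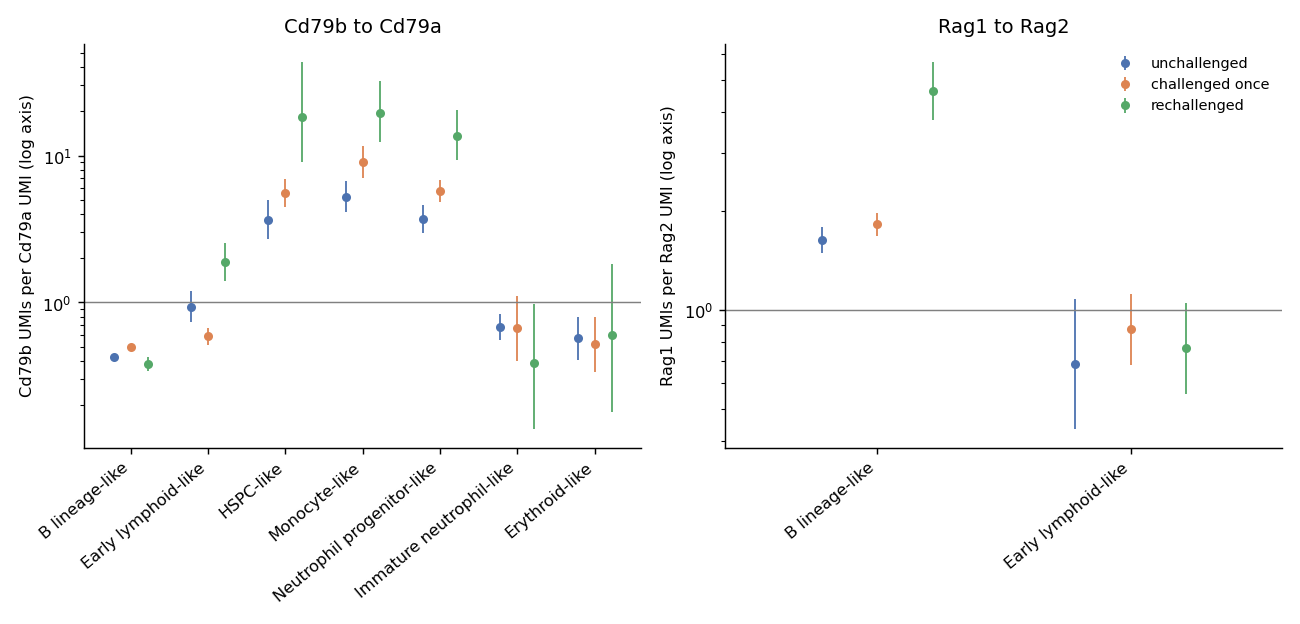
UMIs of Cd79b per UMI of Cd79a in 7 cell classes and of Rag1 per UMI of Rag2 in 2 classes, on log axes, by library with exact 95% intervals for counting error. Cd79b exceeds Cd79a in HSPC-like, monocyte-like and neutrophil progenitor-like cells of all 3 libraries, and Rag1 exceeds Rag2 in B lineage-like but not in early lymphoid-like cells.

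As a mean over the libraries, 8 of the 9 members were highest in B lineage-like cells. The exception was Cd79b, with 889.7 CPM in the immunoglobulin-rich cluster and 781 in B lineage-like cells. Early lymphoid-like cells came next after these 2 classes for 8 members, and ahead of the immunoglobulin-rich cluster for Rag2. Pax5 was at or below 0.834 CPM in megakaryocyte-like, monocyte-like, erythroid-like and HSPC-like cells of every library. Igll1 in immature neutrophil-like cells was at 12.4, 9.65 and 1.16 CPM, lowest in the rechallenged library, and its source there was not tested.

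**Figure D5:**
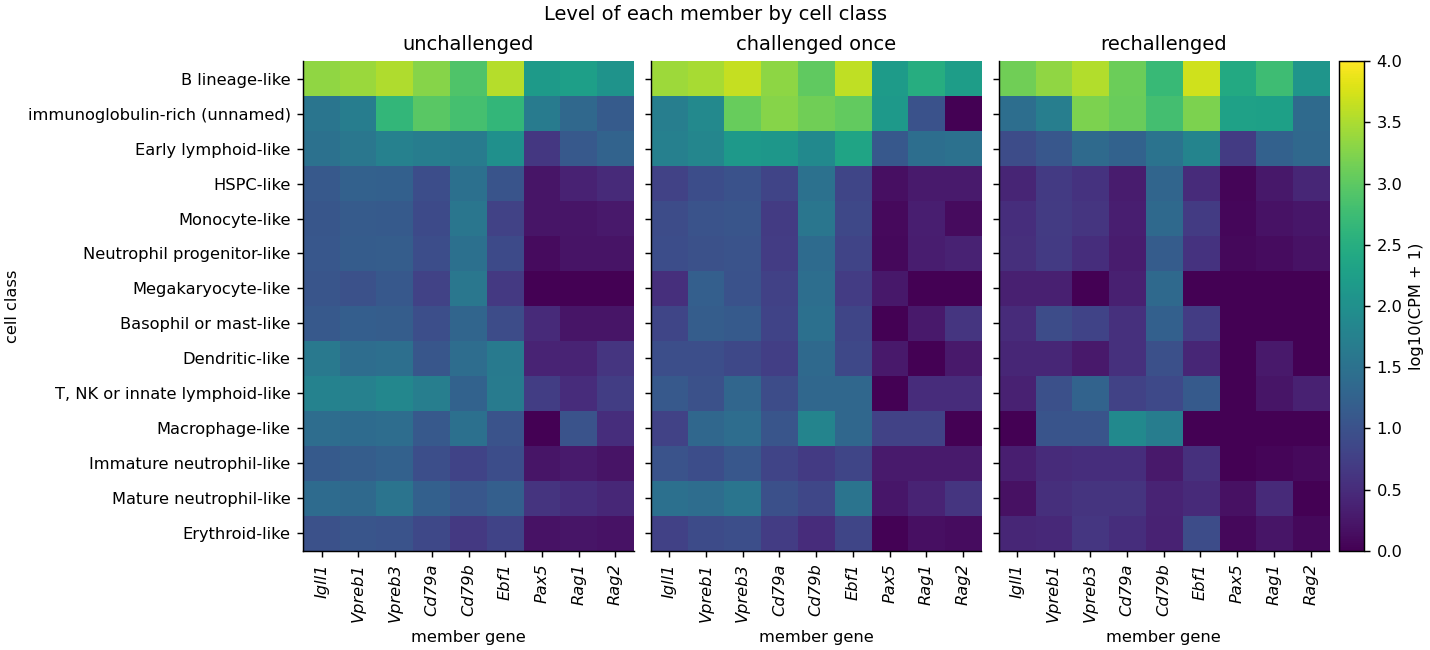
Level of each member as log10(CPM + 1) in 14 cell classes (rows) for the 3 libraries (panels), on 1 colour scale. Values are highest in B lineage-like cells for most members, and the immunoglobulin-rich cluster is high for Cd79a, Cd79b, Vpreb3 and Ebf1 but not for Igll1 and Vpreb1.

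Over 49 profiles of a class in a library with at least 20 cells, some members were closer to each other than others. On log2(CPM + 10), Pearson's r was 0.99 between Vpreb3 and Ebf1, 0.98 between Igll1 and Vpreb1 and 0.94 between Rag1 and Rag2. It was lowest, 0.72, between Cd79b and Rag2. Outside the members, genes most like the mean of the 9 included Akap12 (0.97), Capsl (0.97), Blnk, an adaptor of receptor signalling (0.97), and Mzb1 (0.96). Leaving out the other members, the nearest genes to single members were Mzb1 for Cd79a (0.99), Blnk for Ebf1 (0.96) and Gfra1 for Vpreb1 (0.96). Vpreb2 was nearest to Igll1 (0.95), Cecr2 to Rag1 (0.95), Cacnb1 to Rag2 (0.94) and Fam43a to Cd79b (0.94). Akap12 and Blnk are B lineage markers and Mzb1 a plasma cell marker, all used in naming the classes, so their r are no independent support. The profiles share libraries and depth, and a few classes hold the high values, so these r are descriptions.

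Other genes of the same pathways were followed in B lineage-like cells from lists. In challenged once against unchallenged cells, where 1.57% of all genes were higher and 0.686% lower, none of 10 measured genes of pre-B and B cell receptor signalling, 3 immunoglobulin constant genes and 15 B lineage regulators passed 1.5-fold. Of 6 recombination partners Xrcc6, whose product binds broken DNA ends, was higher, at 279.7 and 450.2 CPM. Of 10 genes of the interleukin 7 receptor pathway Il7r itself was higher, at 167 and 255 CPM. The list medians lay between 0.01 and 0.29, beside -0.00 for all genes.

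In rechallenged against unchallenged B lineage-like cells, 6 of 15 regulators were higher (Bach2, Ikzf1, Myb, Irf4, Runx1 and Tcf4) and 1, Id2, was lower. Of all genes tested in this comparison, 6.84% were higher and 17.6% lower. Bach2, a repressor in B cells, was at 67.5 and 239.8 CPM, a log2 ratio of 1.69, and Ikzf1, which encodes Ikaros, at 114 and 225 CPM, a log2 ratio of 0.92. Of 6 recombination partners the ligase gene Lig4 was higher (33.1 and 55.2 CPM), and the chromatin genes Hmgb1 (3769.7 and 1842 CPM) and Hmgb2 (3839.6 and 2198 CPM) were lower. Of 9 genes of the interleukin 7 receptor pathway, Stat5b (14.7 and 41.1 CPM) and the survival gene Mcl1 (93.8 and 239.8 CPM) were higher. Of 10 signalling genes the kinase gene Blk was higher, at 11.2 and 29.1 CPM, while Blnk was at 439 and 462 CPM. None of 3 constant genes passed the fold. The list medians were 0.06 for the regulators, -0.45 for recombination partners, -0.07 for the interleukin 7 receptor pathway, -0.02 for signalling and 0.17 for the constant genes, beside -0.16 for all genes.

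Against challenged once cells, 4 of 14 regulators were higher after rechallenge, Bach2 (91.9 and 239.8 CPM), Ikzf1, Irf4 and Myb. Of all genes tested, 6.57% were higher and 19% lower. Of 6 recombination partners 3 were lower, Dntt at 1479 and 920.1 CPM, Xrcc6 at 450.2 and 239.8 CPM and Hmgb1 at 2895 and 1842 CPM. Stat5b and Mcl1 were higher among 9 genes, and none of 10 signalling and 3 constant genes passed the fold. The list medians were 0.18 for the regulators, -0.59 for recombination partners, -0.13 for the interleukin 7 receptor pathway, -0.08 for signalling and -0.12 for the constant genes, beside -0.17 for all genes.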

How the data were processed

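The deposited tables held whole-number counts of UMIs per gene and cell barcode, 1 table per library, for 9684, 9060 and 8923 barcodes and 119646078, 135079828 and 95522747 UMIs in the unchallenged, challenged once and rechallenged libraries. Cell Ranger 3.0.0 and mm10 are named per the submitters' processing notes, and the annotation release is not given in the sources used here. Cells under 500 UMIs or 300 genes, or above 10% of UMIs from mitochondrial genes, were removed, and 427, 294 and 256 Scrublet calls (expected rate 6%) were left out. Counts scaled to 10000 per cell and logged, 2000 variable genes without the members and Vpreb2, 30 principal components and 15 neighbours gave 24 Leiden clusters at resolution 1 (scanpy 1.11.5, leidenalg 0.10.2, scipy 1.17.1). Listed interferon, inflammatory, immediate early, heat shock, cell cycle and sex-linked genes were also left out of the variable genes. So were mitochondrial, ribosomal protein and immunoglobulin variable segment genes. Variable genes were chosen per library and no other correction between libraries was made.

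A cluster took the name of the marker list, of 16, with most genes among its top 10 by fold. It stayed unnamed with under 20 cells, under 3 markers at 2-fold, no marker among the top genes, or all markers of another list but not of its own at that fold. This rule was set after the clusters were seen, the motifs were chosen after the promoter sequences were seen, and the members and lists were chosen with earlier results of these data known.

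Levels are UMIs summed over cells per 1000000 UMIs (CPM) with exact Poisson 95% intervals, shares have exact Clopper-Pearson intervals, and folds and ratios of UMIs have intervals for counting error. With 1 library per group no test was run, and nothing says whether the libraries came from separate animals. Ratios and intervals were tested on simulated data. Named genes are the members, up to 4 genes with the largest log2 ratio per pathway list and comparison, the genes most like the members, Kit, and granule, cycle and lineage markers. Further pathway and cluster genes were named after their values were seen. Alternatives were other cell filters, doublets kept, resolution 2, clustering with the members, a gate of 2 markers, median of ratios scaling, 1 CPM added, lower UMI minimums and thinning. The gate without immunoglobulin genes and values within each B lineage-like cluster were added after seeing the data. A gene that the naming rule covers is not reported here.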

Additional observations from a re-analysis of the deposited data

How the results depend on the processing

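No paired analysis was possible because each group had 1 library. In the order unchallenged, challenged once, rechallenged, the share of B lineage-like cells was 14.3%, 17.7% and 5.41% with Scrublet calls kept, and at resolution 2 it was 13.7%, 17.2% and 5.37%. Gating cells by 2 B lineage markers gave 56.1%, 54.5% and 32.4%, and 30.3%, 41.8% and 18.4% with immunoglobulin genes left out, but only 23.9%, 31% and 14.2% and 43.4%, 39.9% and 22.7% of gated cells lay in the B lineage-like clusters. In the first gate 0, 0 and 0 members were past 1.5-fold higher (challenged once over unchallenged, rechallenged over unchallenged, rechallenged over challenged once), where 1.14%, 2.53% and 1.31% of all genes were, and 6 and 6 were lower in the rechallenged comparisons, where 5.48% and 7.19% of all genes were. There the log2 ratio of Pax5 reversed to -0.27 over unchallenged and -0.17 over challenged once, and that of Rag1 to -0.21 over challenged once. Without immunoglobulin genes the counts were 0, 0 and 0 higher (0.517%, 2.02% and 1.36% of all genes) and 7 and 5 lower (7.68% and 7.34%), and Pax5 reversed to -0.45 over unchallenged. The number of members lower in rechallenged than unchallenged B lineage-like cells, 2, was 1 with Scrublet calls kept, 1 at resolution 2, 1 with median of ratios scaling, 1 after thinning and 1 within cluster 4. In that order, 13.5%, 17%, 13.1%, 25.7% and 26.2% of all genes were lower, so these counts are nothing particular to the members. The number higher in challenged once than unchallenged cells, 1, was 2 with 1 CPM added, 0 after thinning and 0 within cluster 4. There 3.52%, 2.27% and 1.33% of all genes were higher. The number higher in rechallenged than unchallenged cells, 2, was 3 with median of ratios scaling, after thinning and within cluster 4. Of all genes, 10%, 8.76% and 11% were higher in these 3 settings. The cause was not tested. Of the members' log2 ratios recomputed in B lineage-like cells, 238 stayed within counting error, 136 moved beyond it and 4 reversed, as given. Depth limits Pax5 and Rag2 most, with 271 and 122 UMIs in rechallenged B lineage-like cells.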
